A study of Homo sapiens with 12 samples.

Results

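CXCL12, the chemokine also known as SDF-1, and its receptors CXCR4 and ACKR3 were followed in 12 RNA-sequencing libraries of 769-P cells, an established human line from a clear cell renal carcinoma. These 3 genes were taken by name from the 60617 gene IDs of the deposited count tables, and all 3 had an ID. The libraries form 4 groups of 3. Cells treated with an siRNA (small interfering RNA) against the long non-coding RNA DRAIC are labelled siDRAIC, and their controls siDRAIC-NC. Cells given one against hnRNPA2B1, a nuclear protein that binds RNA, are labelled sihnRNPA2B1, and their controls sihnRNPA2B1-NC. All groups are the same cell line grown in RPMI1640 medium with fetal bovine serum. The sources used here give no siRNA sequence, no time after transfection and no meaning for the letters NC. Nor do they tell separate cultures from repeat libraries, so the p-values measure the spread between libraries, which could be technical. The genes were chosen with their levels in the siDRAIC and siDRAIC-NC libraries in view, so their values in that contrast are a description without a test.

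CXCL12 is a small secreted protein that stromal cells of bone marrow and many other tissues make without an inflammatory trigger. It binds CXCR4, a receptor coupled to inhibitory G proteins that directs cell migration, and ACKR3, an atypical receptor that recruits arrestins and carries the chemokine into the cell for degradation. Heparan sulfate chains hold CXCL12 at cell surfaces, and proteases such as dipeptidyl peptidase 4 and matrix metalloproteinase 2 remove residues from its N terminus and so end its signalling through CXCR4. In clear cell renal carcinoma, CXCR4 is known as a target of the hypoxia-inducible factors that accumulate when VHL is lost.

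CXCL12 (ENSG00000107562) lies on chromosome 10, 44370165 to 44386493, on the minus strand of GRCh38. CXCR4 (ENSG00000121966) lies on chromosome 2, 136114349 to 136118165, on the minus strand, and ACKR3 (ENSG00000144476) on chromosome 2, 236567787 to 236582358, on the plus strand. All 3 are annotated as protein-coding in GENCODE 29 and overlap no other gene of that annotation. The mean level of the ligand was above that of CXCR4 in the DRAIC groups and below it in the hnRNPA2B1 groups. The 250 bases before the RefSeq transcription start are shown for these 2 genes, since ACKR3 had no entry among the promoters used. They come from RefSeq promoters on GRCh38.p14, read 5′ to 3′ on the minus strand, at chr10:44385098-44385347 for CXCL12 and chr2:136118150-136118399 for CXCR4. For CXCR4 the entry shown is the outermost of 3. The CXCL12 window lies within the span that GENCODE gives the gene, whose annotated start is farther upstream. The capitals mark GC boxes (GGGCGG on either strand) and the TATA box (TATAAA on either strand).
CXCL12: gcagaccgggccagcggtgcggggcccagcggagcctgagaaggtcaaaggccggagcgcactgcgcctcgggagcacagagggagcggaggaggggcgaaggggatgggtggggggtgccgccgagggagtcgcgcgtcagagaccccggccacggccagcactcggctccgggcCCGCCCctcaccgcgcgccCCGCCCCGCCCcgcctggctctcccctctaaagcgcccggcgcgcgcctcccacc
CXCR4: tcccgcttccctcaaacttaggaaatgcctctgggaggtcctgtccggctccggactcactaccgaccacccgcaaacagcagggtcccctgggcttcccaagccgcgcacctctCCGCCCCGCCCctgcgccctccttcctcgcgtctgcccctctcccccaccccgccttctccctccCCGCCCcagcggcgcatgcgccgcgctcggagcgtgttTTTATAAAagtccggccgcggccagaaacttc
The CXCL12 window is 78% G and C, which 5.68% of 34788 promoters reach, against a median of 58% over all of them. It holds 3 GC boxes and no TATA box. The CXCR4 window is 68% G and C and holds 3 GC boxes and 2 overlapping TATA box matches, 1 on each strand. A GC box is found in 42.6% of all promoters of this length and a TATA box in 10.8%. The core of the hypoxia response element (ACGTG or GCGTG, on either strand), the letters bound by hypoxia-inducible factors, occurs once in the CXCR4 window and not in the CXCL12 window, and in 43.1% of all promoters. A loose NF-kB core (3 G and 2 C around 5 open bases, on either strand) matched 5 places in the CXCL12 window and none in the CXCR4 window, and matched 54.4% of all promoters. The other CXCR4 entries, at starts farther in, hold 0 and 1 GC boxes, 0 and 2 hypoxia cores, no TATA box and 1 NF-kB core each.

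Library totals were 36096920 to 42760528 counts in siDRAIC, 35221570 to 39921513 in siDRAIC-NC, 34064129 to 39367842 in sihnRNPA2B1 and 30798303 to 39362360 in sihnRNPA2B1-NC. Levels are counts scaled to the library total (CPM), as mean ± SD of 3 libraries, and 3 counts correspond to 0.0702 to 0.0974 CPM in 1 library. Of 8 markers of a renal epithelial line, 7 (such as PAX8 and KRT8) had at least 3 counts in every library, and CA9, a target of the hypoxia-inducible factors, had 0 in the siDRAIC, sihnRNPA2B1 and sihnRNPA2B1-NC libraries and 1, 0 and 1 counts in siDRAIC-NC. The siRNA targets were examined first. DRAIC had 3, 6 and 0 counts in siDRAIC and 2, 1 and 2 in siDRAIC-NC, and the ratio of the sums, 1.76, had an exact 95% interval from 0.531 to 6.70. A lower level of the target was thus not detectable in the libraries labelled siDRAIC. HNRNPA2B1 measured 291 ± 16.7 CPM in sihnRNPA2B1 and 419.6 ± 21.0 CPM in sihnRNPA2B1-NC (log2 fold change -0.56, SE 0.05, edgeR adjusted p = 2.16e-09). DRAIC overlaps AC021818.1, AC021818.2 and AC100826.1, and HNRNPA2B1 overlaps CBX3 and NFE2L3. The reads of overlapping genes cannot be told apart here.

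CXCL12 RNA was far higher in the libraries labelled siDRAIC than in their controls, and nearly absent from all libraries of the hnRNPA2B1 experiment. The 3 siDRAIC libraries had 906, 1049 and 548 counts, or 25.1, 24.5 and 14.7 CPM. The siDRAIC-NC libraries had 51, 29 and 18 counts, or 1.45, 0.726 and 0.464 CPM. Replicate 3 was the lowest in both groups, and the groups did not overlap: the lowest siDRAIC library stood 10.1 times above the highest control. Groups that do not overlap, higher with the siRNA, were found for 9.75% of the 15986 genes tested in this experiment.

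The mean CXCL12 level was 21.4 ± 5.87 CPM in siDRAIC and 0.879 ± 0.510 CPM in siDRAIC-NC. The summed counts of 2503 and 98 gave a ratio of 25.0 per library total (exact 95% interval 20.5 to 31.0). This interval and those below cover counting error only. Between libraries of the same number the ratio was 17.3 for replicate 1, 33.8 for replicate 2 and 31.6 for replicate 3, so the size of the difference itself varied between pairs. The fitted log2 fold change was 4.61 (SE 0.39), and it ran from 4.29 without siDRAIC-NC replicate 3 to 5.10 without siDRAIC-NC replicate 1. Ranked by mean CPM among the tested genes, CXCL12 was at place 6849 in siDRAIC and at place 13024 in siDRAIC-NC, a gene of middling abundance in siDRAIC and one near the bottom of the tested range in siDRAIC-NC. It was 1 of 93 genes called higher (adjusted p below 0.05, 0.582% of those tested), and had the fifth largest fold change among them. As the gene was chosen from this contrast, nothing is read from that place.

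**Figure D1:**
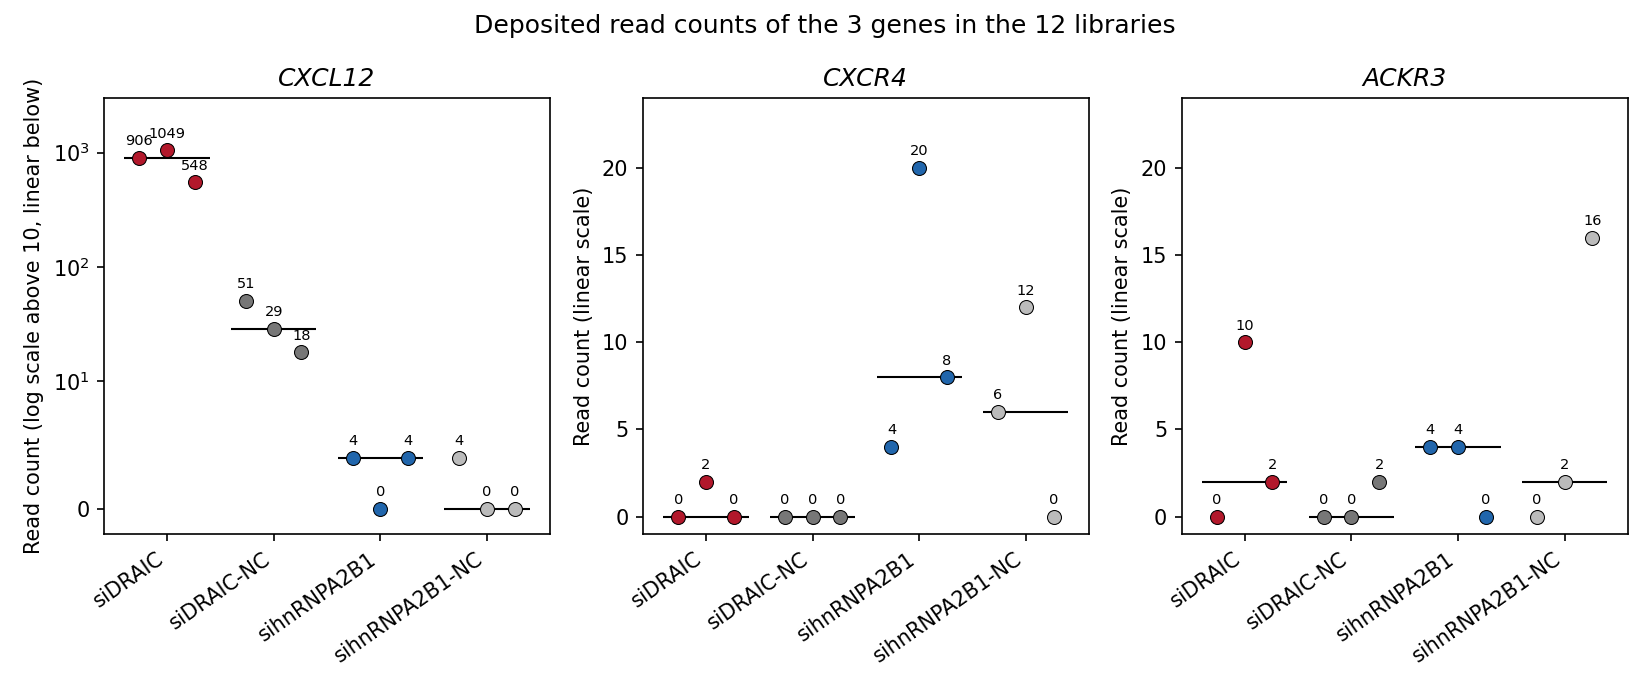
Deposited read counts of CXCL12, CXCR4 and ACKR3 in each of the 12 libraries. Points are libraries in replicate order with the count printed above each, and bars are group medians; the vertical axis for CXCL12 is logarithmic above 10 and linear below, and linear for the receptors. The CXCL12 counts of 548 to 1049 in siDRAIC lie above the 18 to 51 of siDRAIC-NC, while no receptor count exceeds 20.

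In the hnRNPA2B1 experiment CXCL12 had 4, 0 and 4 counts in sihnRNPA2B1 and 4, 0 and 0 in sihnRNPA2B1-NC. The groups overlap, and both means (0.0738 ± 0.0643 CPM in sihnRNPA2B1 and 0.0433 ± 0.0750 CPM in sihnRNPA2B1-NC) lie near the level of 3 counts in 1 library. The summed counts of 8 and 4 gave a ratio of 1.90 (exact interval 0.508 to 8.61), so a change after hnRNPA2B1 siRNA was not detectable at this depth. The gene fell below the expression filter there; without the filter its log2 fold change was 0.77 (edgeR adjusted p = 0.814). In order of level, siDRAIC stood above siDRAIC-NC, and siDRAIC-NC above both groups of the hnRNPA2B1 experiment, whose highest library reached 0.130 CPM against the lowest siDRAIC-NC library at 0.464 CPM. The last 2 groups cannot be ordered. The 2 sets of controls thus differed in CXCL12, with 98 counts in siDRAIC-NC and 4 in sihnRNPA2B1-NC (ratio 22.8, exact interval 8.63 to 85.4). Control treatment, culture and sequencing of the 2 experiments cannot be told apart in that ratio.

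CXCR4, the signalling receptor, was rare in every library, with at most 20 counts. It had 0, 2 and 0 counts in siDRAIC and 0, 0 and 0 in siDRAIC-NC, where 3 counts over the group would be 0.0263 CPM. No fold change is given there. In the hnRNPA2B1 experiment CXCR4 had 4, 20 and 8 counts in sihnRNPA2B1 and 6, 12 and 0 in sihnRNPA2B1-NC, or 0.278 ± 0.204 and 0.167 ± 0.154 CPM. These groups overlap, and replicate 2 was the highest in both. The summed counts of 32 and 18 gave a ratio of 1.69 (exact interval 0.918 to 3.19, log2 0.75), and without sihnRNPA2B1 replicate 2 the log2 ratio was -0.04. Without the expression filter the log2 fold change was 0.69 (edgeR adjusted p = 0.603), so a difference between the groups was not detectable. CXCR4 counts summed to 2 over the DRAIC experiment and 50 over the hnRNPA2B1 experiment, the opposite order to CXCL12, which had 2601 and 12. Of the 2601 CXCL12 counts 2503 came from siDRAIC, and of the 50 CXCR4 counts 20 came from sihnRNPA2B1 replicate 2. Treatment, culture and sequencing of the 2 experiments cannot be told apart in these sums.

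ACKR3, the scavenging receptor, was as rare. It had 0, 10 and 2 counts in siDRAIC and 0, 0 and 2 in siDRAIC-NC, and 10 of the 12 siDRAIC counts came from replicate 2. The sums gave a ratio of 5.88 (exact interval 1.31 to 54.1, log2 2.56), and the log2 ratio was 0.63 without siDRAIC replicate 2. In the hnRNPA2B1 experiment ACKR3 had 4, 4 and 0 counts in sihnRNPA2B1, against 0, 2 and 16 in sihnRNPA2B1-NC. The ratio of 8 to 18 was 0.421 (exact interval 0.159 to 1.02, log2 -1.25), and without sihnRNPA2B1-NC replicate 3 the log2 ratio was 1.33, of the other sign. Without the expression filter its log2 fold change there was -1.20 (edgeR adjusted p = 0.506), so a difference was not detectable. The groups overlap in both experiments.

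Small counts in these tables need care. All 13 receptor counts above 0, of 24, are even numbers, as are the 3 CXCL12 counts above 0 in the hnRNPA2B1 experiment. In every library more genes had a count of 2 (2029 to 2275) than a count of 1 (1275 to 1546), and 57.8 to 62.1% of counts from 1 to 20 were even, against 49.4 to 50.6% of counts above 500. Such an excess can arise where both mates of a read pair are counted; the sources used here do not say whether that was done. With all counts halved, the ratio for CXCL12 in siDRAIC over siDRAIC-NC had an interval of 19.2 to 34.8, and that for ACKR3 widened to 0.714 to 271, which includes 1. For CXCR4 in sihnRNPA2B1 over sihnRNPA2B1-NC the halved counts gave 0.701 to 4.33, and for CXCL12 0.272 to 21.0.

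Compared per kilobase of annotated exon, the ligand had the highest mean of the 3 genes in both DRAIC groups and the lowest in both hnRNPA2B1 groups, where counts were too few to order them. In siDRAIC CXCL12 stood at 3.53 ± 0.966 CPM per kilobase, ACKR3 at 0.0424 ± 0.0543 and CXCR4 at 0.00701 ± 0.0121. In siDRAIC-NC the values were 0.145 ± 0.0839 for CXCL12, 0.00761 ± 0.0132 for ACKR3 and 0 for CXCR4. In sihnRNPA2B1 the order of the means was CXCR4 (0.125 ± 0.0919), ACKR3 (0.0323 ± 0.0282) and CXCL12 (0.0121 ± 0.0106). In sihnRNPA2B1-NC, the means were 0.0749 ± 0.0694 for CXCR4, 0.0732 ± 0.108 for ACKR3, with 16 of 18 counts from replicate 3, and 0.00712 ± 0.0123 for CXCL12. Neighbours in these last 2 orders do not differ beyond the spread between libraries.

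Most of the chemokine family had few or no counts in these libraries. Of 41 other chemokine ligands, 17 had no count in any of the 12 libraries, 17 had 1 to 100 counts in all and 7 had more. Of 22 other receptors, 9 had no count, 11 had 1 to 100, and CCR10, a receptor of skin and mucosa, and ACKR4, an atypical receptor, had more. In siDRAIC the CXCL12 level of 21.4 ± 5.87 CPM stood beside that of CX3CL1, the membrane-bound chemokine fractalkine, at 18.3 ± 2.02 CPM. In siDRAIC-NC, CX3CL1 stood at 31.7 ± 13.4 CPM and CXCL12 at 0.879 ± 0.510 CPM. CX3CL1 did not pass the test in that contrast (log2 fold change -0.83, SE 0.30, edgeR adjusted p = 0.321), though it did without siDRAIC-NC replicate 1 (-1.13, edgeR adjusted p = 0.0089) and with the replicate block (-0.73, edgeR adjusted p = 0.00117). CCL2, which draws monocytes, had 47, 54 and 192 counts in siDRAIC and 10, 70 and 42 in siDRAIC-NC, groups that overlap (1.23, SE 0.76, edgeR adjusted p = 0.627; with the replicate block 1.21, edgeR adjusted p = 0.00811). CCL20 went the other way, with 8 counts in all in siDRAIC and 51 in siDRAIC-NC, and fell below the filter. It was called lower without the filter (-2.69, edgeR adjusted p = 0.0430) and with all 12 libraries in 1 fit (-2.70, edgeR adjusted p = 0.0226).

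**Figure D2:**
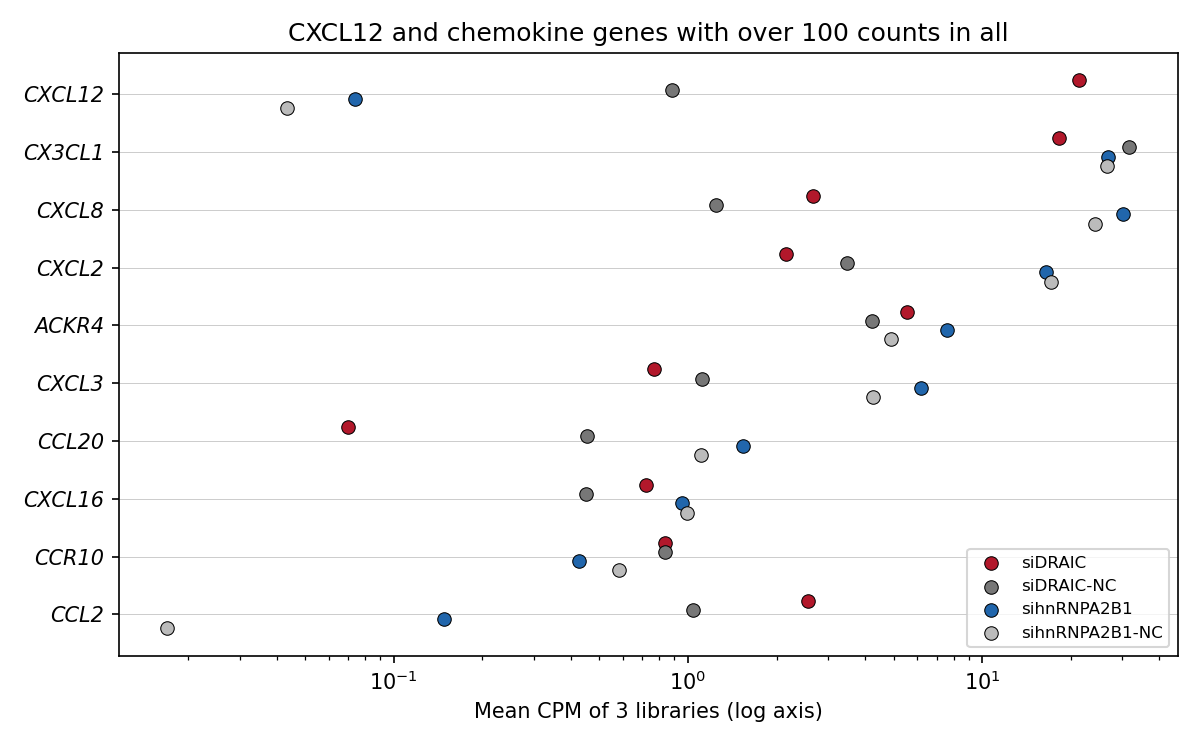
Mean level of CXCL12 and of each other chemokine gene with over 100 counts in all, in CPM on a logarithmic axis, 1 point per group of 3 libraries. CXCL12 stands at 21.4 CPM in siDRAIC and 0.879 CPM in siDRAIC-NC, and at 0.0738 CPM in sihnRNPA2B1 and 0.0433 CPM in sihnRNPA2B1-NC, while CX3CL1 stays between 18.3 and 31.7 CPM in all 4 groups.

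Genes that act with CXCL12 were taken as 6 lists of 149 genes in all. The lists were chosen with earlier results of these data known. The shares of their genes called are therefore a description in both experiments, and nothing is read from them. In the libraries labelled siDRAIC, 75 of them could be tested, and MMP2 rose and CD74 fell. That is 2.67% of the tested list genes, beside 0.713% of all 15986 genes tested (0.582% higher and 0.131% lower), and the median log2 fold change was 0.02 over the lists and -0.00 over all genes. MMP2 is the gelatinase that trims CXCL12 to a form that no longer binds CXCR4. It had 3053, 2570 and 2272 counts in siDRAIC and 426, 166 and 232 in siDRAIC-NC (log2 fold change 3.21, SE 0.33, edgeR adjusted p = 0.00271). CD74 binds the cytokine MIF, also a ligand of CXCR4. It had 32, 40 and 26 counts in siDRAIC, against 321, 482 and 931 in siDRAIC-NC (-4.19, SE 0.40, edgeR adjusted p = 0.000814). The groups did not overlap for either gene. That held for 9.75% of tested genes higher with the siRNA, as for MMP2, and for 5.86% lower with it, as for CD74. MMP2 overlaps AC007336.2, AC007336.3 and MMP2-AS1, and the reads of overlapping genes cannot be told apart here.

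By list, the siDRAIC contrast called none of 6 tested ligands, 2 receptors, 32 signalling genes or 14 transcription factors, 1 of 5 partners and 1 of 16 proteases and heparan sulfate genes. Over all genes tested the share called was 0.713%. The labels give only replicate numbers, which are taken to pair the libraries of this experiment because same-numbered libraries deviated together. With the number as a block 15 list genes were called, 20% of those tested, beside 8.78% of all genes tested in that fit. The 7 higher ones were MMP2, DOCK2, RAC1, EXT1, MMP1, MAPK3 and CCL2, and the 8 lower ones CD74, RGS14, NFKB2, GRK5, CX3CL1, MMP9, RELB and RAC2. Without siDRAIC-NC replicate 1, 12 were called, 3 higher and 9 lower, or 15.8% of those tested beside 6.26% of all genes. DOCK2, an activator of RAC proteins in leukocyte migration that overlaps AC008680.1, INSYN2B and MIR378E, had 1317, 1425 and 1629 counts in siDRAIC and 858, 377 and 465 in siDRAIC-NC (1.31, SE 0.28, edgeR adjusted p = 0.0638). MIF itself, which overlaps MIF-AS1 and AP000350.4, had at most 6 counts in any library and was not tested. As reads of overlapping genes cannot be told apart here, that count is not read as the level of MIF.

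Of 10 markers of stromal cells, which make CXCL12 in tissue, 2 could be tested in this contrast and 1 was called higher. Of 7 tested renal epithelial line markers, 1 was called higher and 1 lower. Over all genes tested the share called was 0.713%. Summed over 10 fibroblast and stromal markers, the level was 10.6 to 18.2 CPM in siDRAIC and 2.66 to 6.59 CPM in siDRAIC-NC. Only COL1A1 and PDGFRB had enough counts to test. COL1A1, a collagen chain, had 484, 325 and 323 counts in siDRAIC and 160, 60 and 72 in siDRAIC-NC (1.91, SE 0.37, edgeR adjusted p = 0.0462). PDGFRB, a growth factor receptor of stromal cells, had 171, 263 and 68 counts in siDRAIC, against 70, 46 and 27 in siDRAIC-NC (1.74, SE 0.47, edgeR adjusted p = 0.154). Both p-values come from the fit without the replicate block, which leaves any pairing of the libraries aside. DCN had counts in both groups but too few to test. COL1A2 and LUM were at 0 in both groups. COL3A1 and FAP were at 0 in siDRAIC and had 4 and 1 counts in all in siDRAIC-NC. PDGFRA, THY1 and POSTN had 1, 3 and 4 counts in all in siDRAIC, each in 1 library, and were at 0 in siDRAIC-NC. Summed endothelial markers were 0.187 to 0.585 CPM in siDRAIC and 0.651 to 0.928 CPM in siDRAIC-NC, and blood and immune markers 0.582 to 0.748 CPM in siDRAIC and 0.825 to 1.43 CPM in siDRAIC-NC, with PTPRC, CD3E and TYROBP at 0 in siDRAIC. Mitochondrial mRNA took 7.67 to 9.26% of counts in siDRAIC and 6.79 to 7.41% in siDRAIC-NC. The part of these in the CXCL12 difference was not tested. In such bulk libraries, more cells that make an RNA and more of it per cell cannot be told apart.

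After hnRNPA2B1 siRNA, in libraries with almost no CXCL12, 36 of the 75 tested list genes were called, 16 higher and 20 lower. That is 48% of them, beside 30.4% of the 15710 genes tested (15.1% higher and 15.4% lower), with a median log2 fold change of -0.09 over the lists and 0.01 over all genes. Mitochondrial mRNA took 6.23 to 6.48% of counts in sihnRNPA2B1 and 5.10 to 5.21% in sihnRNPA2B1-NC. Summed endothelial markers were 0.0587 to 0.156 CPM in sihnRNPA2B1 and 0.279 to 0.390 CPM in sihnRNPA2B1-NC, blood and immune markers 0.229 to 0.382 CPM in sihnRNPA2B1 and 0.334 to 0.635 CPM in sihnRNPA2B1-NC, and stromal markers 3.61 to 4.32 CPM in sihnRNPA2B1 and 2.53 to 4.06 CPM in sihnRNPA2B1-NC; their part in these changes was not tested. Among the regulators, EPAS1, which encodes HIF-2α, rose to 73.7 ± 4.76 CPM in sihnRNPA2B1, against 31.6 ± 0.240 CPM in sihnRNPA2B1-NC (log2 fold change 1.19, SE 0.07, edgeR adjusted p = 7.65e-14). Its groups did not overlap, which held for 42% of tested genes in either direction. The NF-kB subunits NFKB2 (-0.45) and RELB (-0.43) and the factor CEBPB (-0.41) fell, with edgeR adjusted p of 1.75e-07, 3.68e-06 and 7.22e-06. In all, 2 of 14 tested transcription factors rose and 5 fell.

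Among genes that trim or hold CXCL12, 4 of 15 rose and 4 fell after hnRNPA2B1 siRNA. That is 53.3%, beside 30.4% of all genes tested. DPP4, the peptidase that removes the first residues of CXCL12 and overlaps AC008063.1, rose to 23.2 ± 2.95 CPM in sihnRNPA2B1, against 12.4 ± 0.639 CPM in sihnRNPA2B1-NC (0.87, SE 0.10, edgeR adjusted p = 6.01e-08). The genes of heparan sulfate synthesis EXT1 (-0.37) and NDST1 (-0.30) and the heparan sulfate carrier SDC4 (-0.31) fell. Other heparan sulfate genes of the list went both ways. HS2ST1 (0.30, edgeR adjusted p = 0.00192) and GPC1 (0.22, edgeR adjusted p = 0.00933) rose, and SDC1 fell (-0.34, edgeR adjusted p = 0.00378). Of the partners, CD74 had 8, 20 and 20 counts in sihnRNPA2B1 and 43, 55 and 103 in sihnRNPA2B1-NC (-2.17, SE 0.36, edgeR adjusted p = 2.73e-05). Of proteins that act beside CXCR4 at the cell surface, CD164 rose (0.21, edgeR adjusted p = 0.006) and CD44 fell (-0.26, edgeR adjusted p = 6.41e-05). HMGB1, which forms a complex with CXCL12, was just past the threshold with overlapping groups (-0.13, edgeR adjusted p = 0.0465), and most alternatives ended that call.

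In the signalling list 6 of 33 tested genes rose and 8 fell after hnRNPA2B1 siRNA. That is 42.4%, beside 30.4% of all genes tested. The focal adhesion kinase relative PTK2B fell (-0.88, SE 0.11, edgeR adjusted p = 7.15e-07), and the kinase MAPK3 (0.67), the inhibitory G protein subunit GNAI2 (0.38) and the G protein regulator RGS14 (0.43) rose. Of other chemokines, CXCL8 (0.27, edgeR adjusted p = 0.0107) and CXCL3 (0.50, edgeR adjusted p = 0.0133), both ligands of neutrophil receptors, rose among 6 tested. That is 33.3% of the 6, near the share over all genes. ACKR4 rose (0.60, edgeR adjusted p = 0.00288) of 2 tested receptors; it overlaps other annotated genes, whose reads cannot be told apart from its own. When all 12 libraries were fitted together, 5 list genes were called in this contrast (6.49% of those tested, beside 1.66% of all genes), 4 of them among the 36. CXCL8 lost its call without sihnRNPA2B1-NC replicate 1, CXCL3 without sihnRNPA2B1 replicate 1 or 2, and HMGB1 without any 1 of 5 libraries, without the expression filter (edgeR adjusted p = 0.0798) and with the replicate block (edgeR adjusted p = 0.105).

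**Figure D3:**
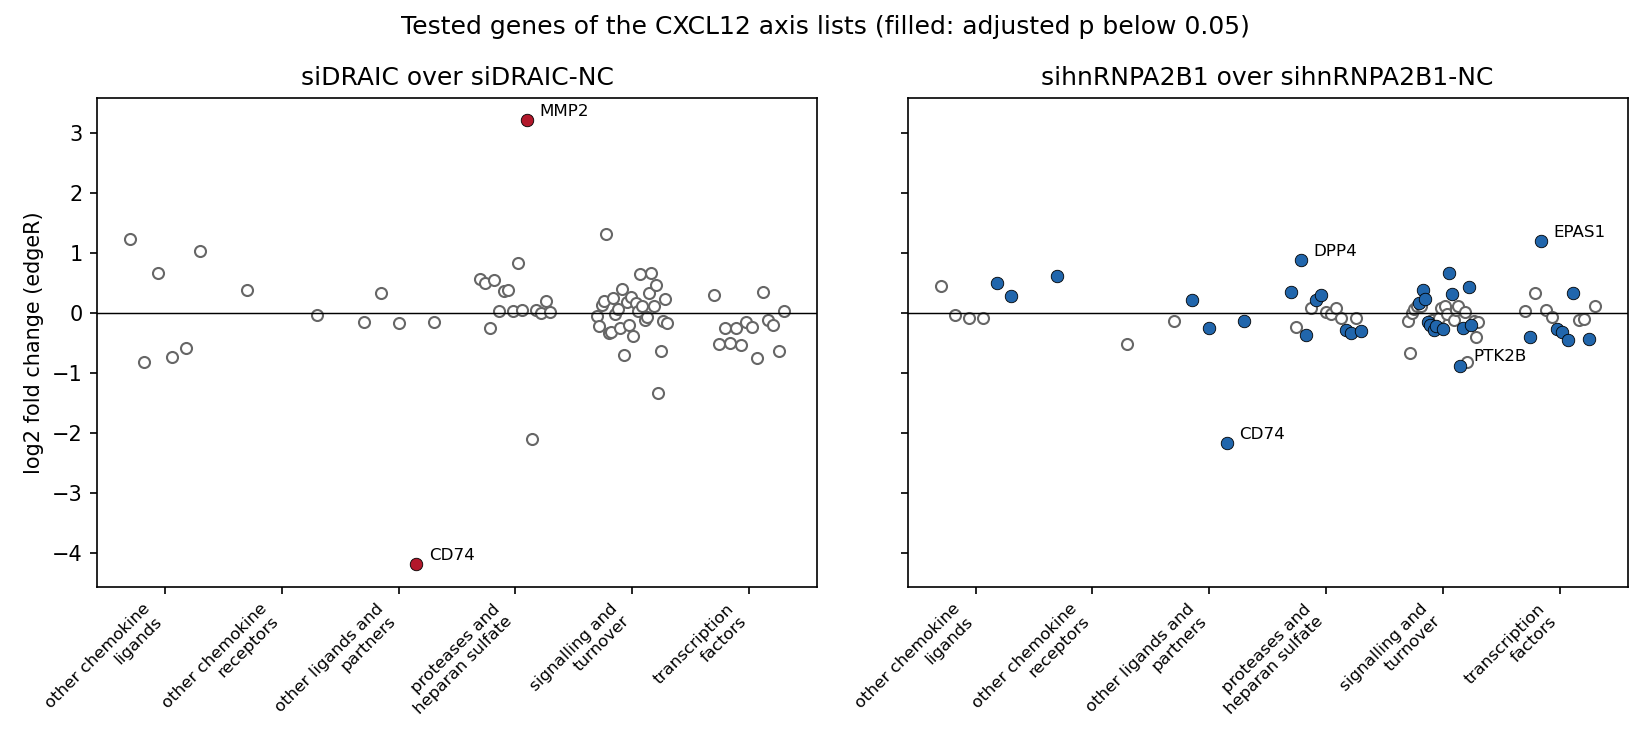
Log2 fold change of each tested gene of the 6 lists, siRNA over its own control, in the DRAIC experiment (left) and the hnRNPA2B1 experiment (right). Filled points passed the edgeR test at an adjusted p below 0.05. In the left panel MMP2 (3.21) and CD74 (-4.19) are filled, and in the right panel 36 points are, most within 1 of zero.

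The genes whose levels most resembled those of CXCL12 over the 12 libraries were SLC26A9, RIPPLY1, JAKMIP2-AS1, MPP2 and NTS. Likeness was taken as the root mean square difference between log2 CPM profiles, each centred on its own mean. It was 1.29 for SLC26A9, 1.51 for RIPPLY1, 1.51 for JAKMIP2-AS1, 1.52 for MPP2 and 1.59 for NTS, beside a median of 3.27 over 17090 genes and 2.21 at the lowest 1%. These genes were picked for the resemblance, so no test is attached. SLC26A9, an anion transporter that overlaps AL713965.1, had 158, 543 and 239 counts in siDRAIC, 18, 33 and 44 in siDRAIC-NC, 6, 2 and 14 in sihnRNPA2B1, and 0, 2 and 2 in sihnRNPA2B1-NC. NTS, the peptide neurotensin, had 84, 268 and 154 counts in siDRAIC, 0, 2 and 0 in siDRAIC-NC, 0, 2 and 2 in sihnRNPA2B1, and 0 in each sihnRNPA2B1-NC library. Both were highest in siDRAIC replicate 2, as CXCL12 was by count, but both had replicate 1 as the lowest of that group, where CXCL12 had replicate 3. RIPPLY1, which overlaps CLDN2 and MORC4, averaged 2.06 ± 0.934 CPM in siDRAIC and 0.156 ± 0.0735 CPM in siDRAIC-NC. MPP2 averaged 5.89 ± 1.40 CPM in siDRAIC and 2.59 ± 0.726 CPM in siDRAIC-NC. JAKMIP2-AS1, antisense to JAKMIP2, averaged 2.89 ± 0.552 CPM in siDRAIC and 0.982 ± 0.437 CPM in siDRAIC-NC. All 5 averaged at most 0.197 CPM in sihnRNPA2B1 and at most 0.188 CPM in sihnRNPA2B1-NC.

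**Figure D4:**
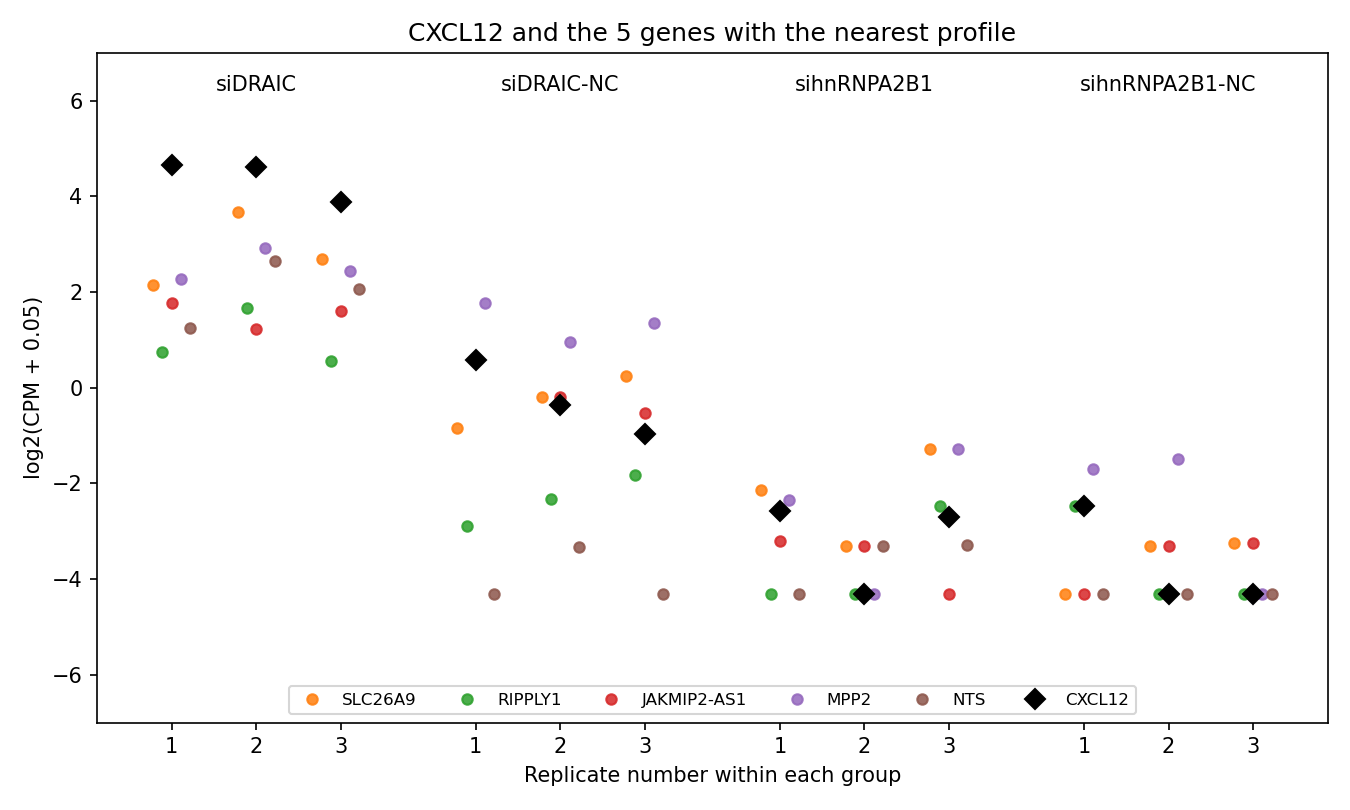
Level of CXCL12 (black diamonds) and of the 5 genes with the nearest profile (circles) in each library, as log2(CPM + 0.05), by group and replicate number. CXCL12 reaches 25.1 CPM in siDRAIC. By group mean, all 6 genes are lowest in the hnRNPA2B1 experiment or, for NTS, in every group but siDRAIC. Single libraries of RIPPLY1 overlap, with 3, 6 and 9 counts in siDRAIC-NC and 0, 0 and 5 in sihnRNPA2B1.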

How the data were processed

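Per the labels' protocols, total RNA was isolated with RNAiso Plus and sequenced from TruSeq libraries. The authors deposited 1 table of raw read counts, by Ensembl gene, for each experiment. Per the submitters' processing notes the build was hg38, with fastp 0.23.2, STAR 2.7.10a, StringTie and DESeq2. The sources used here do not give the counting program, its annotation or its use of strand. Of 60617 IDs, 60261 were paired with a symbol and 58542 are in GENCODE 29. There were 0 unused sample columns and 0 rows that name no gene.

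The 2 experiments were fitted separately in R 4.3.3 with edgeR 4.0.16: filterByExpr at a minimum count of 10, TMM scaling, the robust quasi-likelihood test (two-sided) and Benjamini-Hochberg adjustment over all tested genes, with calls at an adjusted p below 0.05. A log2 fold change is that of the siRNA libraries over their own controls, with an approximate SE. Genes below the filter are given as ratios of summed counts per library total with exact (Clopper-Pearson based) 95% intervals, in place of the planned test, which gave them no value. The fit was tested on simulated data.

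Alternatives were DESeq2 1.42.0, limma-voom (limma 3.58.1), RLE size factors, no filter, a filter of 1 CPM in 3 libraries, a replicate block, 1 fit of all 12 libraries, each library left out and, chosen after seeing the data, counts halved. Same-numbered libraries of the DRAIC experiment deviated together (correlations 0.489, 0.227 and 0.277, against -0.409 to 0.103 for other pairs), so the numbers are taken to pair them. The 3 genes and the lists were chosen with earlier results of these data known. Genes named are the 3, the 2 siRNA targets, up to 4 called genes with the smallest p of each list per experiment, and the 5 nearest profiles (log2 CPM, prior count 2). CX3CL1, CCL2, CCL20, DOCK2, MIF, HS2ST1, GPC1, SDC1, the markers and the genes listed under the block were chosen after their values were seen. No protein sequences were used.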

Additional observations from a re-analysis of the deposited data

How the results depend on the processing

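The log2 fold change of CXCL12 in siDRAIC over siDRAIC-NC kept its sign in all alternatives and ran from 4.29 to 5.10 with a library left out (4.65 with the replicate block). With the lowest siDRAIC library 10.1 times above the highest control, leaving out a library could not turn that sign, so nothing is read from it. CXCR4 gave no fold in that contrast, with 2 counts against 0. Leaving out libraries gave log2 ratios of 0.63 to 3.09 for ACKR3 in the DRAIC experiment, and of 0.25 to 1.55 for CXCL12, -0.04 to 1.67 for CXCR4 and -1.75 to 1.33 for ACKR3 in the hnRNPA2B1 experiment; the highest, for ACKR3, was without sihnRNPA2B1-NC replicate 3. No finite ratio could be had for ACKR3 without siDRAIC-NC replicate 3 (12 counts against 0) or for CXCL12 without sihnRNPA2B1-NC replicate 1 (8 against 0), so those upper ends are not limits. With so few counts, depth limits all receptor values.

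The count of genes called in the DRAIC experiment (114) was 392 with DESeq2, 45 with limma-voom, 520 with no filter, 61 at 1 CPM in 3 libraries, 1404 with the replicate block, 665 with all 12 libraries in 1 fit and 51 with counts halved. It was 9 to 1035 with a library left out, 9 without siDRAIC-NC replicate 2 and 1035 (501 higher, 534 lower) without siDRAIC-NC replicate 1. The list genes called there (2) were 4 with DESeq2, 8 with no filter, 15 with the replicate block and 7 with all 12 libraries, and 2 to 12 with a library left out. In the hnRNPA2B1 experiment 4781 genes were called, 3318 to 5500 with a library left out and 283 with all 12 libraries, where 5 list genes were called in place of 36 (27 to 42 with a library left out). The replicate numbers did not pair those libraries (correlations -0.0456 to -0.0117), and the block gave 4414 calls and 32 list genes. Of 21 list calls named for the smallest p, 6 held in every alternative, and 15 were lost in the fit of all 12 libraries. The causes were not tested.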
